A study of Mus musculus with 18 samples.

Results

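The chemokine ligand genes described here are Ccl2, Ccl3, Ccl4, Ccl5, Ccl6, Ccl9, Ccl22, Cxcl2, Cxcl10 and Cxcl16, which make 10 of the 23329 genes counted. They were taken by gene symbol from the gene counts of 18 RNA-seq libraries, and the rule uses no measured value. The ligands were chosen with earlier results of these data known, so their counts beside those over all genes carry no test. The libraries came from FDH cells, a line of BALB/c mouse fetal liver cells taken at E14.5 and immortalised, used at passages 10 to 12. The mice lacked both beta subunits through which IL-3 signals, the common beta chain and beta IL-3 (bc-/- bIL-3-/-), and both lines were transduced with the common beta chain. The P248L line also carried the IL-3-binding subunit IL3Ra with the amino acid change P248L, and the wild-type line carried wild-type IL3Ra. Each line was sampled untreated, in medium with doxycycline and 100 ng/ml mouse SCF, a growth factor for progenitors that binds the receptor Kit, and after 2 and 5 days with 100 ng/ml IL-3, a cytokine that drives growth and maturation of myeloid cells. Each of the 6 groups (P248L and wild-type, untreated, day 2 and day 5) held 3 libraries, each condition from 1000000 cells. The medium described for IL-3 lists neither SCF nor doxycycline, so that the gain of IL-3 and the loss of both cannot be told apart. Each receptor is represented by 1 line, so receptor and line cannot be told apart either.

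Chemokines are small secreted proteins that guide migrating cells through G-protein-coupled receptors. The CC ligands Ccl2, Ccl3, Ccl4, Ccl5, Ccl6, Ccl9 and Ccl22 mostly attract monocytes, lymphocytes and other mononuclear cells, and of the CXC ligands Cxcl2 attracts neutrophils and Cxcl10 and Cxcl16 attract activated T cells. Monocytes, macrophages and neutrophils make many of these ligands, often under NF-kB and interferon signalling, and Ccl6 and Ccl9 are known mainly from rodents.

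All 10 genes were in the count files. On GRCm38, 5 of them form a cluster on chromosome 11: Ccl5 (chr11:83525778-83530518, minus strand), Ccl9 (chr11:83572919-83578636, minus), Ccl6 (chr11:83587882-83593087, minus), Ccl3 (chr11:83647844-83649355, minus) and Ccl4 (chr11:83662584-83664683, plus) span 139 kb. Ccl9 and Ccl6 lie 9245 bases apart, with no coding gene between them. Ccl2 (chr11:82035571-82037453, plus) and Cxcl16 (chr11:70453983-70459984, minus) lie elsewhere on chromosome 11, Cxcl2 (chr5:90903871-90905938, plus) and Cxcl10 (chr5:92346638-92348889, minus) on chromosome 5 and Ccl22 (chr8:94745590-94751699, plus) on chromosome 8. The 250 bases before the RefSeq start (GRCm38.p6) were at hand for 6 of the 10 (Ccl3, Ccl6, Ccl9, Ccl22, Cxcl2 and Cxcl10). The gene positions above come from GENCODE, and the Cxcl2 and Ccl22 windows, counted from the RefSeq start, run past the GENCODE start. The 4 windows printed belong to Ccl6 and Ccl9, which together made up most of the ligands' reads, to Cxcl2, the ligand that was higher in P248L at day 5, and to Cxcl10, whose responses differed between the lines at both times. Capitals mark motif matches.
Ccl6 promoter, chr11:83593088-83593337, minus strand: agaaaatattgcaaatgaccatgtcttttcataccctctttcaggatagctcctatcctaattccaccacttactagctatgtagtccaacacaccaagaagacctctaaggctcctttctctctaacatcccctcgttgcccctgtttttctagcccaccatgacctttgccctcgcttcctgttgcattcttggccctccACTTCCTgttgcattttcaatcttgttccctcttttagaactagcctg
Ccl9 promoter, chr11:83578637-83578886, minus strand: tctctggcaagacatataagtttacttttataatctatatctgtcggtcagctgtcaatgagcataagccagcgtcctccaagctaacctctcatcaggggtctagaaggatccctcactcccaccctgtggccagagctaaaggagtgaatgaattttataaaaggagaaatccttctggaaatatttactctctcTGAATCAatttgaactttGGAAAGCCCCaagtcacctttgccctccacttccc
Cxcl2 promoter, chr5:90903649-90903898, plus strand: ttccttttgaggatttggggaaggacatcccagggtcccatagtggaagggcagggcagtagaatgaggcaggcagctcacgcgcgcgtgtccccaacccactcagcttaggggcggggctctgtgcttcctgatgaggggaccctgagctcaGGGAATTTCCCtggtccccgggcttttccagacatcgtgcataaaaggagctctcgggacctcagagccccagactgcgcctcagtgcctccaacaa
Cxcl10 promoter, chr5:92348890-92349139, minus strand: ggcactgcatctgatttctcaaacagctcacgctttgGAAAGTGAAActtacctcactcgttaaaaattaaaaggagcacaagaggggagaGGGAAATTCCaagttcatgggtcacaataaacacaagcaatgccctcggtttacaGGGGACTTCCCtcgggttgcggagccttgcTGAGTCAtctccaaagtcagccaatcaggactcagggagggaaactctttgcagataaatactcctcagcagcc
The motifs searched on both strands were the NF-kB consensus (in 7.25% of 32851 windows of this length), the interferon-response element core (ISRE, 2.98%), the STAT site TTCNNNGAA (7.02%), the C/EBP site TTGCNNAA (9.56%), the AP-1 site TGANTCA (6.75%) and the ETS site AGGAAGT (7.69%). Cxcl10 held NF-kB matches at -159 and at -104 and -103 (overlapping), counted from the start, the interferon-response core at -213 and AP-1 at -74. Cxcl2 held overlapping NF-kB matches at -97 and -96. Ccl9 held an NF-kB match at -35 and AP-1 at -53, and Ccl6 an ETS match at -48. In the Ccl3 and Ccl22 windows none of these letters was found. A match describes letters only.

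Libraries held 13844612 to 27181962 reads in genes, and every pair of libraries in a group differed by more than counting noise. Nothing in the labels tells separate cultures from repeats of the same one, so the p-values reflect the spread among these libraries, which may be technical. All 8 haematopoietic markers (Ptprc, Spn, Cd34, Kit, Gata2, Vav1, Coro1a and Sfpi1) stood at 1 CPM or more in each group, while of 8 hepatocyte genes (7 in the files) Alb, Ttr and Apob had no read in any library. The hepatocyte list summed to 0.384 to 0.754 CPM in P248L untreated, 0.800 to 1.25 CPM at P248L day 2 and 0.153 to 1.004 CPM at P248L day 5, against 0.665 to 1.199, 13.3 to 14.3 and 3.35 to 4.08 CPM in wild-type cells at those times. Its 1 tested gene, Afp, was lower in P248L than in wild-type cells at day 2 and day 5 and rose at both times in wild-type cells. Il3ra, the alpha subunit gene, ranged from 0.441 to 8.93 CPM in P248L and 2.18 to 11.2 CPM in wild-type libraries. Csf2rb, the common beta chain gene, ranged from 60.4 to 270.3 CPM in P248L and 77.8 to 456 CPM in wild-type libraries. Csf2rb2, the beta IL-3 gene, ranged from 89.0 to 339.5 CPM in P248L and 91.4 to 667 CPM in wild-type libraries. Csf2rb2 thus held reads in every library, although the mice are labelled as lacking it. The 2 beta genes are close paralogs whose reads can be shared, and gene counts tell neither a deleted exon nor an introduced copy. CPM is reads per 1000000 after TMM scaling. Rises and falls below passed edgeR's quasi-likelihood test at a Benjamini-Hochberg adjusted p under 0.05 over the 11942 genes with enough reads, and log2 fold changes carry the SE from that fit. Of the 10 ligands 8 had enough reads, and Ccl22 and Cxcl16 did not.

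Together the 10 ligands took 0.0950% ± 0.0101 of reads in genes in P248L untreated libraries and 0.0962% ± 0.00851 in wild-type untreated libraries (SD, n = 3 each here and below). At day 2 they took 0.0274% ± 0.00181 in P248L libraries, below every untreated library of either line, and 0.198% ± 0.0228 in wild-type libraries, above every untreated library. At day 5 the shares were 0.831% ± 0.119 in P248L libraries and 2.00% ± 0.192 in wild-type libraries. The most abundant ligand by reads changed with IL-3, by day 2 in wild-type cells and by day 5 in P248L. At P248L day 2 Ccl9 still led, with 73.7 ± 3.92% of the ligands' reads. Ccl9 made up 92.3 ± 0.753% of the ligands' reads in P248L untreated and 89.7 ± 2.24% in wild-type untreated libraries. Ccl6 made up 72.3 ± 0.602% in P248L day 5 and 82.3 ± 0.311% in wild-type day 5 libraries, against 7.81 ± 2.18% in P248L day 2 and 44.5 ± 2.62% in wild-type day 2 libraries. Among all genes by reads, Ccl6 ranked 7 to 9 in P248L day 5 libraries and 4 to 5 in wild-type day 5 libraries. In bulk RNA, fewer cells of a type and less RNA per cell cannot be told apart.

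**Figure D1:**
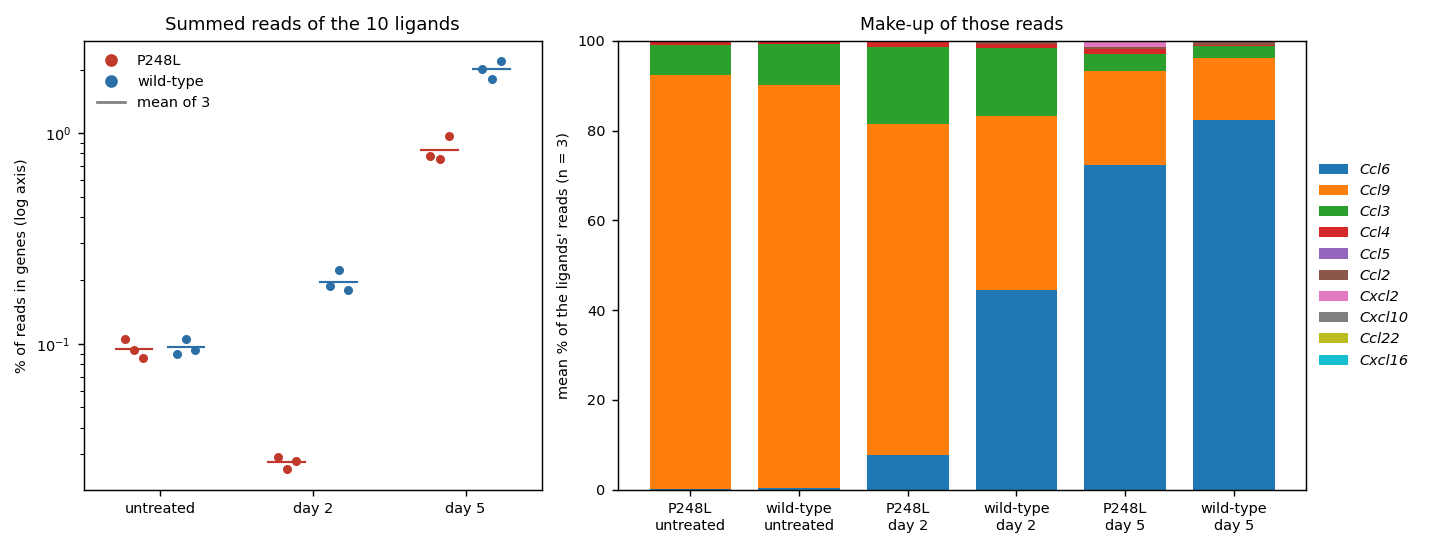
The left panel gives the summed reads of the 10 ligands as a percentage of reads in genes on a log axis, with a point per library and a bar at the mean of 3. The right panel gives each ligand's mean percentage of those reads, with Ccl9 at 92.3% in the P248L untreated group and Ccl6 at 82.3% in the wild-type day 5 group.

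At day 2 the lines went different ways. In P248L cells 1 of the 8 tested ligands rose over untreated (Ccl6) and 2 fell (Ccl4 and Ccl9), where 40% of all tested genes changed (18.5% rose and 21.5% fell). In wild-type cells 6 rose and none fell, and Ccl5 and Ccl9 did not pass, where 43.9% of all tested genes changed (22.1% rose and 21.8% fell). The median log2 fold change over the 8 was 0.34 in P248L and 2.35 in wild-type cells, and over all tested genes -0.01 and 0.00 in the same order of lines. The responses themselves differed for 5 of the 8, all lower in P248L, against 9.55% of all tested genes (6.5% lower and 3.05% higher).

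At day 5 all 8 tested ligands had risen over untreated in both lines, where 71.1% of tested genes changed in P248L (34.8% rose) and 73.1% in wild-type cells (35.7% rose and 37.4% fell). Ccl2, Ccl5 and Cxcl2 held at most 8 reads in an untreated group, so they had enough reads for a test only through groups with IL-3. Ccl22 and Cxcl16, which stayed low, were left out. A rise of every tested ligand is thus partly set by that filter. The medians were 4.12 in P248L and 5.62 in wild-type cells, against -0.02 and -0.05 over all tested genes. All 8 also rose over day 2, in P248L with 70.2% of tested genes changed (37.1% rose) and in wild-type cells with 70.7% (36% rose and 34.7% fell). The day 5 response differed for 2 of 8 (Ccl9 and Cxcl10, both lower in P248L), against 26.9% of tested genes (12.2% lower). Leaving out P248L day 2 library 2 ended 1 of these calls, the Cxcl10 rise over day 2 in P248L (log2 fold change 0.90, edgeR adjusted p = 0.0756).

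**Figure D2:**
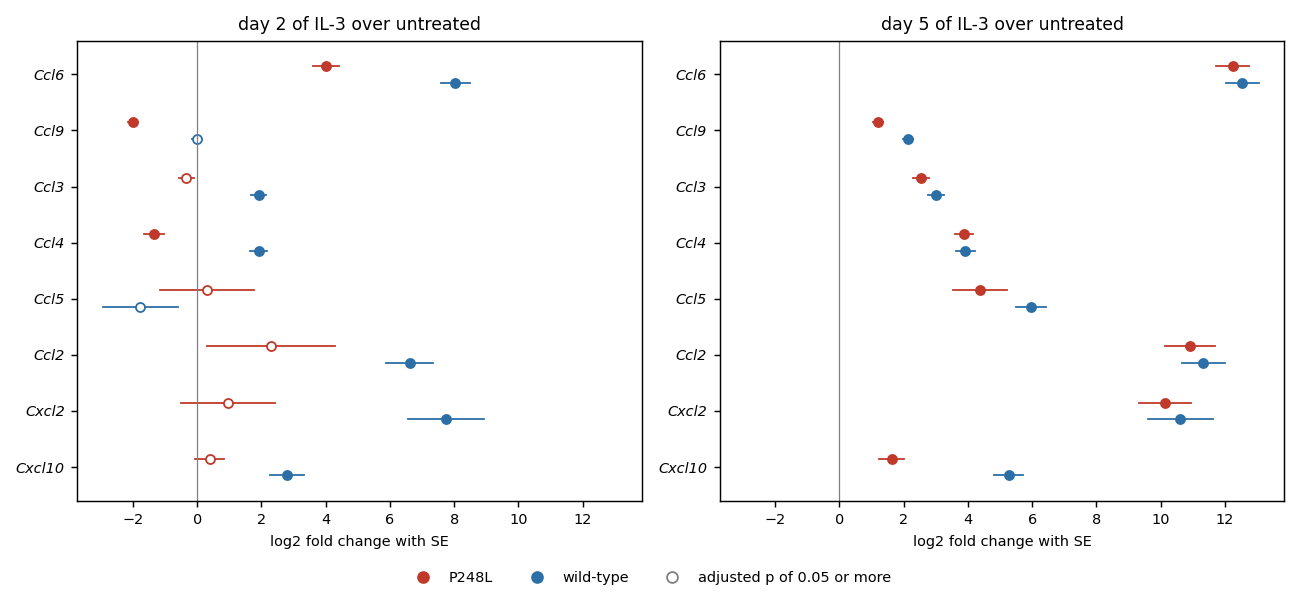
Fitted log2 fold changes over untreated with their SE for the 8 tested ligands, P248L above wild-type in each row, at day 2 (left) and day 5 (right). Open points did not pass. At day 2 only Ccl6 lies past the threshold on the right for P248L, and at day 5 all points do for both lines. For Ccl2, Ccl5 and Cxcl2 an untreated group held 1 read, and those fitted values depend on the prior count.

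Compared at the same time, 6 of 8 ligands were lower in P248L at day 2 and none higher, where 35.8% of tested genes differed (20.3% lower). Ccl5 and Cxcl10 did not pass there. At day 5, 6 were lower and 1, Cxcl2, was higher, where 45.5% differed (22.7% lower and 22.8% higher), and Ccl4 did not pass. The median over the 8 was -2.75 at day 2 and -1.23 at day 5, and over all tested genes 0.00 and 0.02. Untreated, Cxcl10 was higher and Ccl6 lower in P248L, 2 of 8 where 21.7% of tested genes differed (10.3% higher and 11.3% lower). Both calls were near the threshold, and 1 or both were lost without each of the 6 untreated libraries in turn, as given for each gene below.

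**Figure D3:**
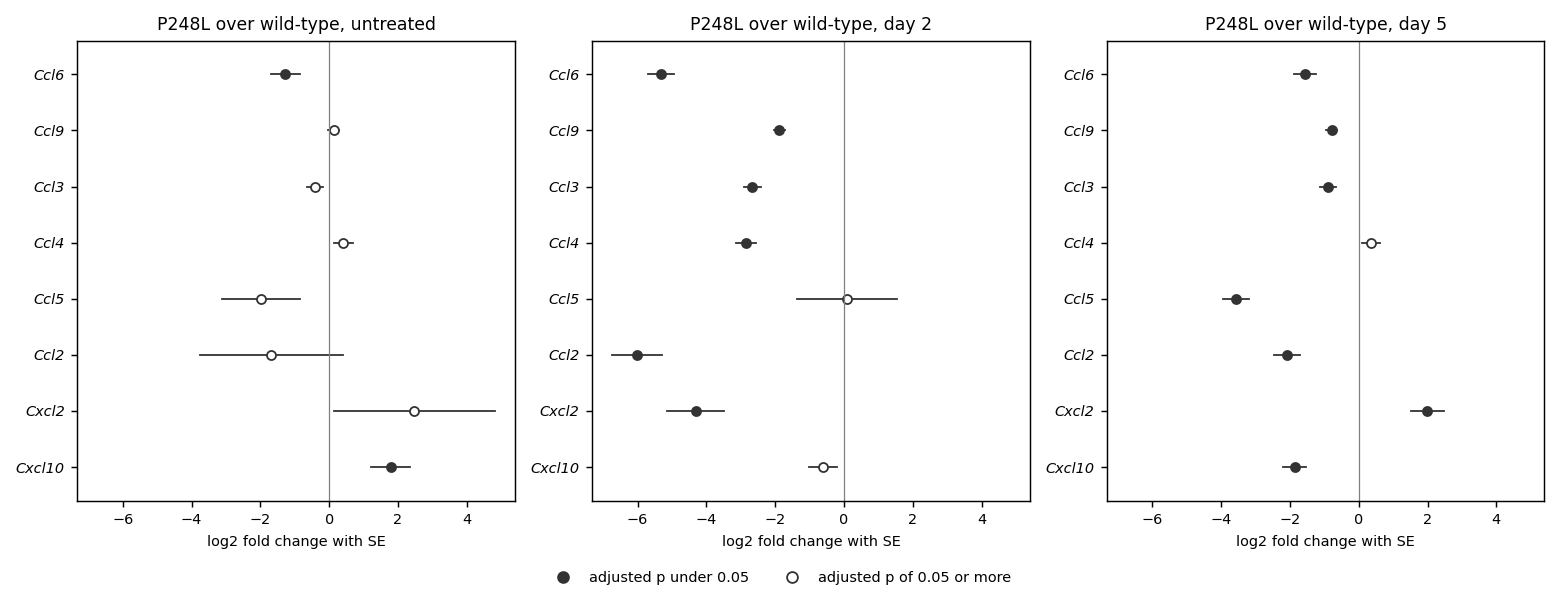
Log2 fold changes of P248L over wild-type with their SE for the 8 tested ligands, untreated (left), at day 2 (middle) and at day 5 (right). Filled points passed. At day 5 Cxcl2 is the filled point to the right of 0, at 1.99.

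Ccl6, a rodent ligand of Ccr1, was at a few CPM untreated and among the genes with most reads at day 5. In P248L libraries 1 to 3 its level was 1.16, 2.20 and 0.320 CPM untreated, then 28.4, 17.4 and 18.3 CPM after 2 days and 6099, 5787 and 7655 CPM after 5 days. Wild-type libraries 1 to 3 had 2.74, 5.11 and 1.82 CPM untreated, then 779, 957 and 839 CPM after 2 days and 19547, 17552 and 21098 CPM after 5 days. Each IL-3 library lay above every untreated library of its line, and the lines overlapped only untreated. The rise at day 2 came to a log2 fold change of 4.00 ± 0.41 (SE, edgeR adjusted p = 7.19e-07) in P248L and 8.04 ± 0.44 (SE, edgeR adjusted p = 9.35e-11) in wild-type cells, and the difference of the 2 responses was -4.04 ± 0.55 (SE, edgeR adjusted p = 8.5e-05). At day 5 the rises were 12.25 ± 0.52 (SE, edgeR adjusted p = 8.45e-13) in P248L and 12.54 ± 0.52 (SE, edgeR adjusted p = 3.78e-13) in wild-type cells. Their difference, -0.29 ± 0.54 (SE, edgeR adjusted p = 0.735), did not pass, although P248L day 5 lay below wild-type day 5 (log2 fold change -1.57 ± 0.32, SE, edgeR adjusted p = 0.000651). Day 2 showed the wider gap between lines, -5.32 ± 0.38 (SE, edgeR adjusted p = 5.06e-09). The untreated values rest on few reads, 31, 67 and 5 in P248L and 55, 132 and 41 in wild-type libraries. The untreated difference was -1.28 ± 0.42 (SE, edgeR adjusted p = 0.0374). It was lost without P248L library 1 (edgeR adjusted p = 0.121) or 3 (0.0638) and without wild-type library 1 (0.0624) or 2 (0.212). Without P248L untreated library 2, which held most reads of its group, the day 2 rise in P248L was 4.73, the day 5 rise 12.90, the untreated difference -1.98 and the day 2 difference of responses -3.32, all on the log2 scale.

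Ccl9, the neighbour of Ccl6 and also a rodent Ccr1 ligand, was abundant before IL-3 and fell at day 2 in P248L. P248L libraries had 986, 764 and 702 CPM untreated, then 194, 178 and 237 CPM after 2 days and 1761, 1742 and 2155 CPM after 5 days. The wild-type levels were 701, 807 and 737 CPM untreated, then 731, 839 and 666 CPM after 2 days and 3335, 3026 and 3426 CPM after 5 days. The P248L day 2 libraries lay below all 15 others, and the untreated groups and wild-type day 2 overlapped. The day 2 change was -2.01 ± 0.16 (SE, edgeR adjusted p = 3.44e-08) in P248L and -0.01 ± 0.15 (SE, edgeR adjusted p = 0.985) in wild-type cells, with a difference of responses of -2.004 ± 0.22 (SE, edgeR adjusted p = 8.98e-06). From day 2 both lines then rose alike in direction, by 3.22 ± 0.17 (SE, edgeR adjusted p = 1.39e-11) in P248L and 2.13 ± 0.16 (SE, edgeR adjusted p = 1.59e-09) in wild-type cells. Over untreated, day 5 was higher by 1.21 ± 0.16 (SE, edgeR adjusted p = 1.83e-06) in P248L and 2.12 ± 0.16 (SE, edgeR adjusted p = 1.29e-09) in wild-type cells, a difference of responses of -0.92 ± 0.22 (SE, edgeR adjusted p = 0.00428). Ccl9 shares 59 of its 2996 distinct 50-base stretches (1.97%) with transcripts of other genes.

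Ccl3, which attracts monocytes and neutrophils through Ccr1 and other receptors, rose early in wild-type cells and late in P248L. Its P248L levels were 63.8, 61.8 and 51.0 CPM untreated, then 50.03, 44.3 and 45.4 CPM after 2 days and 294, 271 and 455 CPM after 5 days. Its wild-type levels were 58.5, 106 and 70.4 CPM untreated, then 295, 362 and 229 CPM after 2 days and 623, 496 and 775 CPM after 5 days. All wild-type day 2 libraries lay above all untreated ones, while the P248L day 2 libraries lay just below their untreated ones. The day 2 change of -0.34 ± 0.24 (SE, edgeR adjusted p = 0.272) in P248L did not pass, against 1.91 ± 0.24 (SE, edgeR adjusted p = 4.44e-06) in wild-type cells, and the responses differed by -2.25 ± 0.34 (SE, edgeR adjusted p = 0.000218). At day 5 the change was 2.53 ± 0.25 (SE, edgeR adjusted p = 5.56e-08) in P248L and 3.01 ± 0.25 (SE, edgeR adjusted p = 5.3e-09) in wild-type cells, a difference of -0.48 ± 0.33 (SE, edgeR adjusted p = 0.302) that did not pass. P248L day 5 lay below wild-type day 5 (log2 fold change -0.89 ± 0.23, SE, edgeR adjusted p = 0.00441). Set against wild-type day 2 instead, P248L day 5 overlapped it (0.20 ± 0.23 (SE, edgeR adjusted p = 0.459)).

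Ccl4, next to Ccl3 and an attractant of monocytes and T cells, was the tested ligand whose P248L and wild-type levels did not pass as different at day 5 in either direction. Levels in P248L were 9.80, 6.75 and 4.87 CPM untreated, then 3.47, 2.28 and 2.65 CPM after 2 days and 90.4, 88.6 and 138 CPM after 5 days. Levels in wild-type cells were 3.83, 6.96 and 5.46 CPM untreated, then 18.6, 25.3 and 17.4 CPM after 2 days and 78.2, 66.2 and 103 CPM after 5 days. The lines overlapped untreated and at day 5, and at day 2 the P248L libraries lay below and the wild-type libraries above every untreated library. The day 2 changes were -1.34 ± 0.30 (SE, edgeR adjusted p = 0.00187) in P248L and 1.91 ± 0.28 (SE, edgeR adjusted p = 2.27e-05) in wild-type cells, which differed by -3.25 ± 0.41 (SE, edgeR adjusted p = 3.95e-05). At day 5 they were 3.87 ± 0.29 (SE, edgeR adjusted p = 1.6e-09) in P248L and 3.92 ± 0.29 (SE, edgeR adjusted p = 1.12e-09) in wild-type cells, which differed by -0.05 ± 0.37 (SE, edgeR adjusted p = 0.954), not past the threshold. P248L over wild-type at day 5 was 0.35 ± 0.25 (SE, edgeR adjusted p = 0.275), which passed with the replicate number as a block in a fit of only the groups compared (log2 fold change 0.33, edgeR adjusted p = 0.00529).

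Ccl5, a ligand of Ccr1 and Ccr3 known from T cells and from interferon-treated cells, was near 0 until day 5. Before IL-3 the P248L libraries counted 0, 1 and 0 reads, with 1, 0 and 0 on day 2 and 10, 2 and 9 on day 5. In the wild-type line the reads came to 1, 3 and 1 before IL-3, 0, 1 and 0 on day 2 and 89, 104 and 52 on day 5, that is 5.42, 5.91 and 3.54 CPM, against 0.463, 0.153 and 0.565 CPM at P248L day 5. Every day 5 library lay above every earlier library of its line, and the lines did not overlap at day 5. Scaled by effective library size, here and below, the ratio to 1 untreated read in P248L was 30.2 (exact 95% counting interval 4.86 to 1249.8), with edgeR adjusted p = 0.000166. In wild-type cells day 5 was higher than untreated by 5.98 ± 0.47 (SE, edgeR adjusted p = 2.14e-09). P248L day 5 lay below wild-type day 5 (log2 fold change -3.58 ± 0.38, SE, edgeR adjusted p = 4.79e-07), among the tested ligands the widest gap at that time. The day 5 difference of responses, -1.60 ± 2.38 (SE, edgeR adjusted p = 0.665), did not pass. With 1 read in a group, fitted values hang on single libraries. The P248L day 5 rise over untreated was 5.95 without P248L untreated library 2 against 4.38 with it, and that over day 2 was 5.98 without P248L day 2 library 1 against 4.07. The wild-type rise over day 2 was 9.61 without wild-type day 2 library 2 against 7.75. P248L day 5 over wild-type day 2 was 3.58 and 6.01 without wild-type day 2 libraries 1 and 2, against 4.17 with all.

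Ccl2, which recruits monocytes through Ccr2, rose in wild-type cells by day 2 and in P248L by day 5. The P248L libraries showed 0.0375, 0 and 0 CPM untreated, then 0.165, 0 and 0.0735 CPM after 2 days and 28.1, 33.5 and 55.7 CPM after 5 days. The wild-type libraries showed 0, 0.116 and 0.0444 CPM untreated, then 3.44, 5.97 and 9.66 CPM after 2 days and 131, 101 and 266 CPM after 5 days. Library 3 was the highest at day 5 in both lines, and the lines did not overlap at day 2 or day 5. Reads behind the low values were 1 in all P248L untreated libraries, 5 at P248L day 2 and 4 in wild-type untreated. The ratio of P248L day 5 to its 1 untreated read was 2779 (exact 95% counting interval 498 to 109817), with edgeR adjusted p = 9.79e-10. P248L day 2 over untreated, at a ratio of 6.73 (exact 95% counting interval 0.754 to 319), did not pass (edgeR adjusted p = 0.386). In wild-type cells the log2 fold change over untreated was 6.62 ± 0.74 (SE, edgeR adjusted p = 1.13e-06) at day 2 and 11.33 ± 0.68 (SE, edgeR adjusted p = 5.52e-11) at day 5. P248L lay below wild-type at day 2 (log2 fold change -6.01 ± 0.73, SE, edgeR adjusted p = 4.09e-06) and at day 5 (log2 fold change -2.09 ± 0.37, SE, edgeR adjusted p = 0.000157). The differences of responses did not pass at day 2 (edgeR adjusted p = 0.552) or day 5 (edgeR adjusted p = 1). These fitted values moved with single low libraries. Without wild-type untreated library 2, the wild-type rises were 7.74 at day 2 and 12.43 at day 5. Without P248L untreated library 1 or 2 the P248L day 5 rise was 12.55 or 10.30 against 10.93 with all. Without P248L day 2 library 1, day 5 over day 2 in P248L was 9.87 against 8.64, and P248L over wild-type at day 2 was -7.29 against -6.01.

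Cxcl2, a neutrophil attractant that binds Cxcr2, was the ligand that ended higher in P248L. In P248L it measured 0.0751, 0.131 and 0.128 CPM untreated, then 0.248, 0.308 and 0.0735 CPM after 2 days and 88.7, 88.5 and 212 CPM after 5 days. In wild-type cells it measured 0, 0.0387 and 0 CPM untreated, then 4.18, 4.93 and 4.39 CPM after 2 days and 16.7, 11.5 and 70.3 CPM after 5 days. At day 2 every wild-type library lay above every P248L library, and at day 5 every P248L library lay above every wild-type library. Library 3 was again the highest at day 5 in both lines. The day 2 change was 0.97 ± 1.47 (SE, edgeR adjusted p = 0.636) in P248L, which did not pass. In wild-type cells it was 266 reads against 1 untreated, a ratio of 306 (exact 95% counting interval 54.5 to 12135), with edgeR adjusted p = 3.87e-05. At day 5 the rise was 10.13 ± 0.81 (SE, edgeR adjusted p = 4.28e-09) in P248L. Wild-type day 5 held 1510 reads against 1 untreated, a ratio of 2124 (exact 95% counting interval 381 to 83943), with edgeR adjusted p = 3.32e-08. P248L over wild-type was -4.31 ± 0.83 (SE, edgeR adjusted p = 0.000546) at day 2 and 1.99 ± 0.48 (SE, edgeR adjusted p = 0.00235) at day 5. Untreated, every P248L library also lay above every wild-type library, on 8 reads against 1, which did not pass (edgeR adjusted p = 0.454). The difference of day 5 responses, -0.49 ± 1.69 (SE, edgeR adjusted p = 0.876), did not pass. The difference of day 2 responses was -6.78 ± 2.54 (SE, edgeR adjusted p = 0.109) and did not pass. It passed without wild-type day 5 library 3 (edgeR adjusted p = 0.00691) and with the replicate number as a block (0.028). Without that same library the wild-type rise over untreated was 9.40 against 10.61 with it, that over day 2 was 1.65 against 2.86, and P248L over wild-type at day 5 was 3.20. Without wild-type untreated library 2, which held the 1 read, the wild-type rises were 9.45 at day 2 and 12.29 at day 5. Cxcl2 shares 126 of its 2159 distinct 50-base stretches (5.84%) with its paralog Cxcl3, so a part of its count is uncertain.

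Cxcl10, an interferon-induced attractant of T cells that binds Cxcr3, was low in every group. P248L values were 0.638, 0.590 and 0.256 CPM untreated, then 0.744, 0.369 and 0.956 CPM after 2 days and 1.62, 1.69 and 1.57 CPM after 5 days. Wild-type values were 0.199, 0.0774 and 0.177 CPM untreated, then 0.871, 1.26 and 1.04 CPM after 2 days and 3.59, 5.00 and 9.18 CPM after 5 days. Untreated P248L libraries lay above untreated wild-type ones, the lines overlapped at day 2, and P248L lay below wild-type at day 5. The day 2 changes were 0.38 ± 0.45 (SE, edgeR adjusted p = 0.527) in P248L, not past the threshold, and 2.79 ± 0.52 (SE, edgeR adjusted p = 0.000308) in wild-type cells. At day 5 they were 1.62 ± 0.40 (SE, edgeR adjusted p = 0.00158) in P248L and 5.27 ± 0.45 (SE, edgeR adjusted p = 7.48e-09) in wild-type cells. The responses differed by -2.40 ± 0.71 (SE, edgeR adjusted p = 0.0395) at day 2 and -3.65 ± 0.65 (SE, edgeR adjusted p = 0.000435) at day 5. P248L over wild-type was 1.79 ± 0.57 (SE, edgeR adjusted p = 0.0319) untreated, -0.61 ± 0.42 (SE, edgeR adjusted p = 0.281) at day 2 and -1.86 ± 0.33 (SE, edgeR adjusted p = 0.000181) at day 5. The untreated groups rest on 17, 18 and 4 reads in P248L and 4, 2 and 4 in wild-type libraries. The untreated call was lost without P248L library 1 or 2 (edgeR adjusted p = 0.126 and 0.0827) and without wild-type library 1, 2 or 3 (0.0565, 0.0985 and 0.0715). The day 2 difference of responses was lost without P248L untreated library 1 or 2 (0.0933 and 0.0967), P248L day 2 library 2 (0.082), any P248L day 5 library (0.0503 to 0.0511), any wild-type untreated library (0.061 to 0.104) or any wild-type day 2 library (0.0507 to 0.0841).

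**Figure D4:**
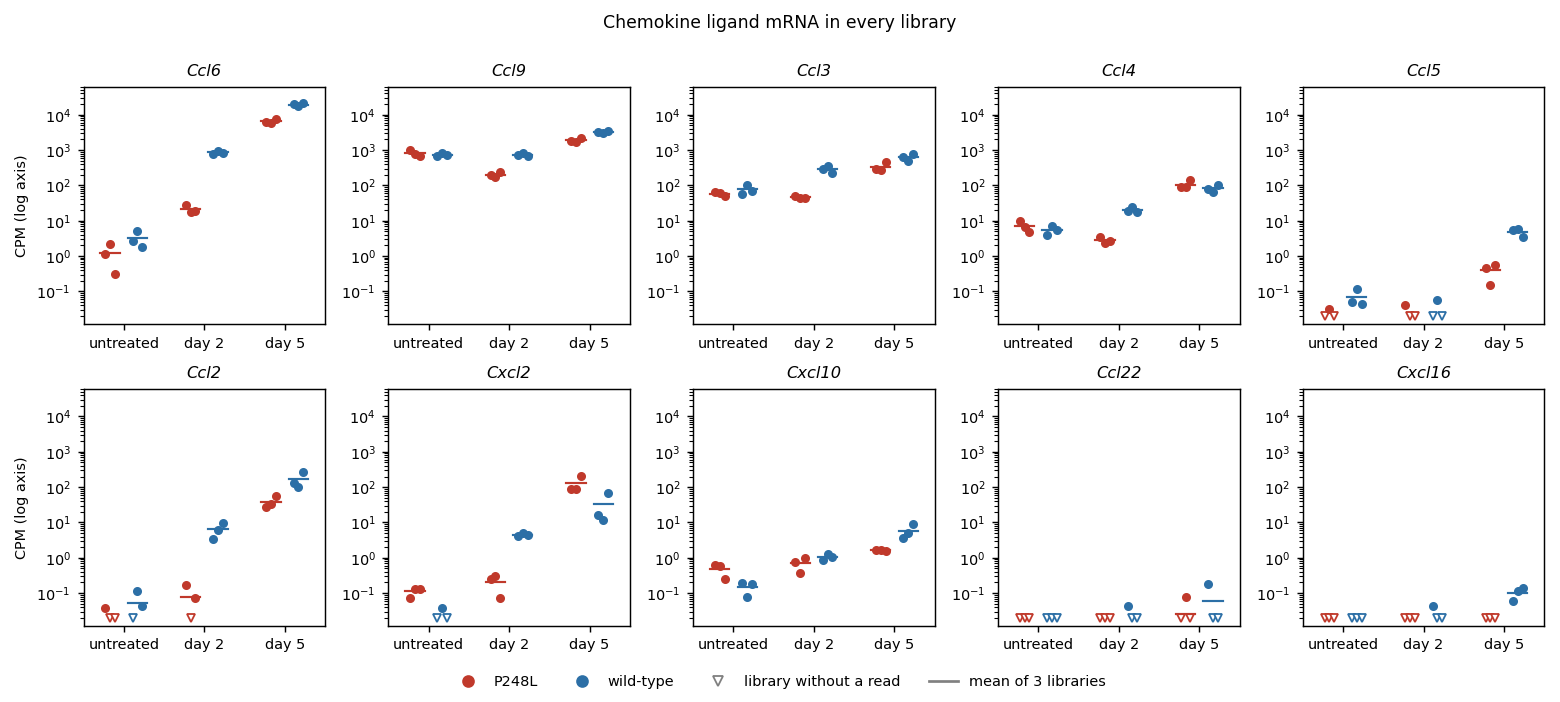
CPM of the 10 ligands in each library on a log axis, P248L left of wild-type at each time, with bars at means above the lower edge of the data and open triangles for libraries without a read. Ccl22 and Cxcl16 stay near 0 in all 6 groups, and Cxcl2 at day 5 is the panel where the P248L points lie above the wild-type ones.

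Ccl22, a Ccr4 ligand made by dendritic cells and macrophages, and Cxcl16, a membrane-bound Cxcr6 ligand, had too few reads for a test. Ccl22 held no read untreated or at day 2 in P248L and 1 at day 5, and in wild-type libraries none untreated, 1 at day 2 and 3 at day 5, all in library 1. Cxcl16 held no read in any P248L library, and in wild-type libraries none untreated, 1 at day 2 and 1, 2 and 2 at day 5. With a floor of 3 reads set for the P248L group, Cxcl16 at P248L day 5 came out 1.73-fold lower than at wild-type day 5. With the same floor for wild-type untreated, wild-type day 5 came out 2.34-fold higher. These ratios take the 5 reads without their own counting error, so they are no lower bounds, and they carry no test. For Ccl22 no difference was detectable at this depth.

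Per kilobase of the longest coding transcript, which allows levels of different genes to be compared, the order also changed with IL-3. In untreated cells it ran Ccl9, Ccl3, Ccl4 and Ccl6 in both lines. The means were 272, 76.9, 10.8 and 0.852 CPM per kb in P248L and 249, 102, 8.21 and 2.24 in wild-type cells. At day 2 Ccl9 and Ccl3 led in P248L, at 67.5 and 60.8 CPM per kb, and their libraries overlapped. Wild-type cells at day 2 had Ccl6 ahead of Ccl3 and Ccl9, at 596, 386 and 247.999 CPM per kb, with no overlap. At day 5 Ccl6 led in both lines, at 4523 CPM per kb in P248L and 13472 in wild-type cells, followed by Ccl9 and Ccl3, whose libraries overlapped in each line. Below these came Ccl4 (160.0 CPM per kb), Cxcl2 (69.9) and Ccl2 (48.1) in P248L, with Cxcl2 and Ccl2 overlapping. In wild-type cells they were Ccl2 (204 CPM per kb), Ccl4 (125) and Cxcl2 (17.7), with Ccl2 and Ccl4 overlapping and Cxcl2 overlapping Ccl5 (9.32) below it.

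P248L day 5 was also set against wild-type day 2, the earlier time at which 6 ligands had risen in wild-type cells. There 6 of 8 ligands were higher in P248L day 5, where 66.3% of tested genes differed (33% higher). The log2 fold changes were 2.92 ± 0.34 (SE, edgeR adjusted p = 7.46e-07) for Ccl6, 4.85 ± 0.55 (SE, edgeR adjusted p = 5.87e-07) for Cxcl2 and 2.63 ± 0.39 (SE, edgeR adjusted p = 1.4e-05) for Ccl2. Ccl4 was higher by 2.37 ± 0.27 (SE, edgeR adjusted p = 5.06e-07) and Ccl9 by 1.34 ± 0.16 (SE, edgeR adjusted p = 7.19e-07). Ccl5 had 21 reads against 1, a ratio of 24.7 (exact 95% counting interval 3.98 to 1022), with edgeR adjusted p = 0.000415. Ccl3 and Cxcl10 did not pass (edgeR adjusted p = 0.459 and 0.153). With the replicate number as a block among these groups only, Cxcl10 passed at a log2 fold change of 0.64 (edgeR adjusted p = 0.0384).

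The receptors of these ligands were examined beside them. Of 23 chemokine receptor genes 9 had enough reads for a test. At day 2 the rises included Ccr4 in both lines and Cxcr2 and Cxcr4 in wild-type cells. Of the 9, 3 fell (Ccr1, Ccr2 and Cxcr4) in P248L and 2 (Ccr2 and Cx3cr1) in wild-type cells. Over all tested genes 18.5% rose and 21.5% fell at day 2 in P248L, against 22.1% and 21.8% in wild-type cells. At day 5 the rises included Ccr1, Ccr4, Cxcr2 and Ccrl2 in both lines and Cxcr4 in wild-type cells. At that time none fell in P248L, and 2 fell (Ccr2 and Cx3cr1) in wild-type cells. Of all tested genes 34.8% rose and 36.2% fell at day 5 in P248L, against 35.7% and 37.4% in wild-type cells. Ccr2, the receptor of Ccl2, stood in P248L libraries at 1108, 1299 and 1563 CPM untreated, then 78.2, 107 and 205 CPM after 2 days and 1780.5, 1721 and 2032 CPM after 5 days. Its wild-type values were 1619, 1524 and 1727 CPM untreated, then 127, 181 and 197 CPM after 2 days and 165, 186 and 269 CPM after 5 days. It fell at day 2 in both lines, and at day 5 P248L was above wild-type by 3.16 ± 0.29 (SE, edgeR adjusted p = 1.02e-07) while Ccl2 was below. Ccr1, the shared receptor of Ccl3, Ccl5, Ccl6 and Ccl9, stood at 256, 271 and 297 CPM untreated, then 97.5, 115 and 149.9 CPM after 2 days and 855, 845 and 1031 CPM after 5 days in P248L libraries. The wild-type values were 285, 292 and 304 CPM untreated, then 283, 344 and 299 CPM after 2 days and 773, 795 and 913 CPM after 5 days. Its day 2 responses differed by -1.26 ± 0.21 (SE, edgeR adjusted p = 0.000533), with a fall in P248L (log2 fold change -1.19 ± 0.15, SE, edgeR adjusted p = 7.12e-06), and at day 5 the lines' difference of 0.14 ± 0.14 (SE, edgeR adjusted p = 0.471) did not pass. Cxcr2, the receptor of Cxcl2, averaged 31.3 ± 3.63 CPM in P248L and 14.4 ± 2.67 CPM in wild-type cells before IL-3, so that P248L was already higher by 1.12 ± 0.18 (SE, edgeR adjusted p = 0.000187). At day 2 it averaged 29.8 ± 6.37 CPM in P248L and 53.9 ± 7.56 CPM in wild-type cells, lower in P248L (log2 fold change -0.86 ± 0.18, SE, edgeR adjusted p = 0.00101). At day 5 the averages were 124 ± 19.8 CPM in P248L and 48.2 ± 5.17 CPM in wild-type cells, higher in P248L by 1.36 ± 0.18 (SE, edgeR adjusted p = 5.66e-06), while the day 5 difference of responses, 0.24 ± 0.25 (SE, edgeR adjusted p = 0.515), did not pass. Ccrl2, which binds chemerin and does not signal by itself, averaged 18.3 ± 3.06 CPM at P248L day 5 and 158 ± 20.1 CPM at wild-type day 5. Cxcr4, the receptor of Cxcl12, averaged 128 ± 19.7 CPM and 178 ± 17.6 CPM in the same groups. Cxcr3, the receptor of Cxcl10, averaged at most 0.882 CPM in a group.

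**Figure D5:**
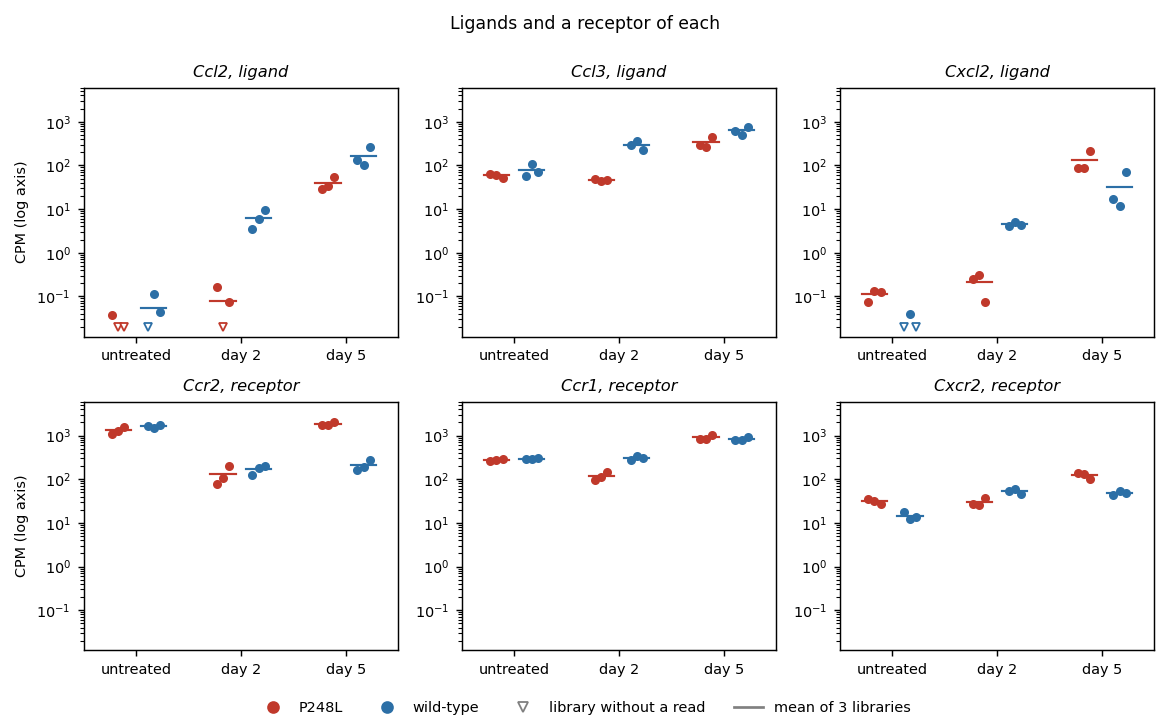
CPM per library on a log axis for 3 ligands (top) and a receptor of each (bottom), P248L left of wild-type at each time. At day 5 Ccl2 is lower and Ccr2 higher in P248L, and both Cxcl2 and Cxcr2 are higher in P248L. Cxcr2 is also higher in P248L untreated and lower in P248L at day 2.

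The other 28 chemokine ligand genes summed to 24.3 to 37.3 CPM at P248L day 5 and 54.6 to 111 CPM at wild-type day 5, against 8012 to 10672 and 21264 to 25752 CPM for the 10 in the same groups, most of it from Ccl6 and Ccl9. The 10 were chosen with earlier results of these data known, as stated above. Of the 28, 10 were tested. At day 2, 1 rose (Ccl24) and 2 fell (Ppbp and Cx3cl1) in P248L. In wild-type cells 4 rose (Ccl7, Cxcl3, Cxcl9 and Ppbp) and 2 fell (Ccl28 and Cx3cl1). Of all tested genes 18.5% rose and 21.5% fell at day 2 in P248L, against 22.1% and 21.8% in wild-type cells. At day 5 over untreated, 5 rose (Ccl7, Ccl12, Cxcl3, Cxcl9 and Pf4) and 3 fell (Ccl25, Ccl28 and Cx3cl1) in P248L. In wild-type cells 6 rose and 2 fell (Ccl28 and Cx3cl1). Of all tested genes 71.1% changed in P248L (34.8% rose and 36.2% fell) and 73.1% in wild-type cells (35.7% rose and 37.4% fell). Ccl7, which like Ccl2 binds Ccr2, stood at 1.76, 0.690 and 1.88 CPM at P248L day 5, against 52.3, 39.8 and 89.1 CPM at wild-type day 5, lower in P248L (log2 fold change -5.34 ± 0.40, SE, edgeR adjusted p = 2.35e-08). Per kilobase, the wild-type day 5 mean of Ccl7 was 75.4 CPM, above that of Cxcl2 at 17.7 CPM and of Cxcl10 at 4.38 CPM. Cxcl3, the Cxcr2 ligand beside Cxcl2, stood at 3.29, 4.76 and 7.41 CPM at P248L day 5, against 0.183, 0.455 and 2.18 CPM at wild-type day 5, higher in P248L by 2.49 ± 0.56 (SE, edgeR adjusted p = 0.00222). Pf4, a platelet chemokine, was higher in P248L at day 5 by 1.60 ± 0.32 (SE, edgeR adjusted p = 0.000531). Ccl25, a thymus and gut chemokine, was lower there (log2 fold change -0.67 ± 0.23, SE, edgeR adjusted p = 0.0232).

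Genes of the pathways that act on chemokine promoters were counted beside them. Of 23 NF-kB pathway genes, all tested, 6 rose and 2 fell (Nfkbia and Nfkbie) at day 2 in P248L, and 10 rose and 1 fell (Irak1) in wild-type cells. At day 5, 21 rose and 2 fell (Nfkbib and Irak1) in P248L, and 16 rose and 1 fell (Irak1) in wild-type cells. Over all tested genes, 18.5% rose at day 2 and 34.8% at day 5 in P248L, against 22.1% and 35.7% in wild-type cells. The responses differed for 4 at day 2 (Nfkb2, Relb, Nfkbia and Tnf) and for 3 at day 5 (Relb, Nfkbie and Tlr2), all lower in P248L, beside 6.5% of all tested genes lower at day 2 and 12.2% at day 5. Nfkbia, an inhibitor and target of NF-kB and the gene after Plin3 most like Ccl4 in pattern, averaged 14.6 ± 1.56 CPM at P248L day 2 and 54.9 ± 6.54 CPM at wild-type day 2. Its difference of day 2 responses was -2.44 ± 0.39 (SE, edgeR adjusted p = 0.000384). Between lines at day 2, 6 of the 23 were lower in P248L (Nfkb2, Relb, Nfkbia, Nfkbiz, Bcl3 and Tnfaip3) and none higher, where 20.3% of all tested genes were lower and 15.5% higher. The genes of highest level in the list, the bacterial sensors Tlr2 and Tlr4, the precursor subunit Nfkb1 and the kinase Irak1, did not differ past the threshold between lines at day 2 (edgeR adjusted p = 0.152, 0.818, 0.165 and 0.918).

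Of 13 interferon pathway genes 12 were tested, and Ifnb1 was not. At day 2, 7 fell in P248L and 8 in wild-type cells, where Ifngr2 rose. At day 5, 11 rose in P248L and 10 in wild-type cells and none fell, where 34.8% of all tested genes rose in P248L and 35.7% in wild-type cells. At day 2 21.5% of all tested genes fell in P248L and 21.8% in wild-type cells. The day 5 responses were lower in P248L for 6 and higher for 3 (Ifnar2, Ifngr1 and Irf8), where 12.2% of all tested genes were lower and 14.7% higher. Irf7, an interferon-induced regulator, stood at 17.1, 13.7 and 18.1 CPM at P248L day 5, against 571, 672 and 472 CPM at wild-type day 5, with a difference of responses of -4.95 ± 0.40 (SE, edgeR adjusted p = 1.02e-07). Stat2, a transcription factor of type I interferon signalling, differed by -1.41 ± 0.17 (SE, edgeR adjusted p = 9.58e-06) and the kinase gene Jak1 by -0.50 ± 0.20 (SE, edgeR adjusted p = 0.0741), the last not past the threshold. Cxcl10 and Ccl5 were lower in P248L at day 5, as were Ccl2, Ccl3, Ccl6 and Ccl9. The part of interferon signalling in the ligands' levels was not tested.

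Among 8 proteases known to cut chemokines 7 were tested. At day 2, 1 rose (Mmp8) in P248L and 2 rose (Mmp8 and Mmp9) in wild-type cells, and Ctsg fell in both lines. Of all tested genes 18.5% rose and 21.5% fell at day 2 in P248L, against 22.1% and 21.8% in wild-type cells. At day 5, 5 rose in P248L (Adam17, Mmp8, Mmp9, Mmp12 and Ctss) and the same 5 in wild-type cells, and Ctsg again fell in both, where 34.8% of all tested genes rose in P248L and 35.7% in wild-type cells. Ctss (cathepsin S) averaged 872 ± 151 CPM at P248L day 5 and 4762 ± 488 CPM at wild-type day 5, lower in P248L (log2 fold change -2.45 ± 0.24, SE, edgeR adjusted p = 2.16e-07). Mmp8, a neutrophil collagenase, averaged 1276 ± 118 CPM and 1334 ± 135 CPM in those groups, and Ctsg (cathepsin G) 18.6 ± 0.686 and 1.196 ± 0.685 CPM. Adam10, which sheds Cxcl16, averaged 452 ± 0.428 and 478 ± 26.1 CPM, and did not pass between lines at any time (edgeR adjusted p = 0.407 untreated, 0.589 at day 2 and 0.738 at day 5).

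Pairwise, the 8 tested ligands correlated over the 18 libraries between r = 0.626 (Ccl5 and Cxcl2) and r = 0.970 (Ccl2 and Ccl6) of log2 CPM (prior count 2). The r describe 6 groups of 3 libraries that share lines and times, and carry no test. Among 9021 other genes of 10 CPM or more in a group, the most alike in pattern were Lilrb3 (r = 0.996) and Nov (r = 0.995) for Ccl6, Atp6v0d1 (r = 0.977) and Arhgap25 (r = 0.976) for Ccl9 and Lgals3 (r = 0.978) and Klf2 (r = 0.972) for Ccl3. For Ccl4 they were Plin3 (r = 0.988) and Nfkbia (r = 0.985), for Ccl5 Oasl2 (r = 0.982) and Ifit1 (r = 0.982) and for Ccl2 Upp1 (r = 0.989) and Id2 (r = 0.988). For Cxcl2 they were Stx11 (r = 0.985) and Fpr2 (r = 0.9799), and for Cxcl10 1 of them was BC013529 (r = 0.941). Oasl2 and Ifit1 are interferon-induced antiviral genes, Lilrb3 an inhibitory receptor of myeloid cells and Fpr2 a formyl peptide receptor of phagocytes.

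Markers of myeloid cell types moved with time and line as well. In untreated cells macrophage markers summed to 246 to 277 CPM in P248L (4 of 10 at 1 CPM or more) and 228 to 253 CPM in wild-type cells (5 of 10), neutrophil markers to 4.16 to 7.87 (3 of 8) and 68.2 to 104 CPM (6 of 8), and basophil and mast cell markers to 651 to 734 and 554 to 732 CPM (4 of 8 each).  Macrophage markers (10 listed) summed to 1728 to 2024 CPM at P248L day 5, with 6 of 10 at 1 CPM or more and C1qa and C1qb at 0, and to 2882 to 3149 CPM at wild-type day 5, with 8 of 10. At day 2 they summed to 338 to 358 CPM in P248L (5 of 10, with C1qa, C1qb and Mertk among those at 0) and 462 to 529 CPM in wild-type cells (6 of 10, with C1qa and C1qb at 0). Neutrophil markers (8 of 9 in the files, all but Ly6g) summed to 97.1 to 172 CPM at P248L day 2 (5 of 8 at 1 CPM or more) and 15133 to 18622 CPM at wild-type day 2 (8 of 8). At day 5 they summed to 28137 to 40378 CPM in P248L and 9203 to 14809 CPM in wild-type cells (8 of 8 in both), and 4 of the 8 (Ltf, Lcn2, S100a8 and S100a9) were higher in P248L at day 5, where 22.8% of all tested genes were, while the other 4 did not pass. Basophil and mast cell markers (8) summed to 47.6 to 75.6 CPM at P248L day 5 (3 of 8, with Prss34 and Fcer1a at 0) and 2137 to 3113 CPM at wild-type day 5 (4 of 8, with Prss34 at 0). Their members did not move together. At day 5 over untreated, Cpa3 and Cma1 rose and Mcpt8 fell in wild-type cells, where 35.7% of all tested genes rose and 37.4% fell. In P248L Mcpt8, Cpa3 and Hdc fell, where 36.2% of all tested genes did. Dendritic cell markers (7) summed to 259.7 to 385 CPM at P248L day 5 (2 of 7, with H2-Ab1 and Ccr7 at 0) and 126 to 150.2 CPM at wild-type day 5 (3 of 7). Of the 3 tested, Cd74 was higher and Itgax lower in P248L at day 5, and Flt3 did not pass. Over all tested genes 22.8% were higher and 22.7% lower. Lymphoid markers (6) summed to at most 2.65 CPM in any library and erythroid and megakaryocyte markers to at most 35.3 CPM. Stromal and endothelial markers summed to 71.7 to 173 CPM over the libraries, and 1 to 3 of 8 reached 1 CPM in a group. The part of cell makeup in the ligands' levels was not tested.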

How the data were processed

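RNA-seq libraries of FDH cells numbered 18, in 6 labelled groups of receptor and time with 3 libraries each. Per the submitters' processing notes, STAR and mm10 were used. Tool versions, annotation and filters stand as not given in the sources used here. Each deposited file holds raw read counts per gene, for both strands and for each strand, in the layout of a STAR gene count table. The strand carrying most reads was analysed. The other strand took 1.17 to 2.54% of the counts, and reads assigned to no single gene (27.9 to 38.1%) were left out of library sizes. Intervals cover counting error only, since no molecular identifiers are described, and floors cover only that of the group without reads.

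A filterByExpr minimum count of 10 kept 11942 of 23329 genes. After TMM scaling, group means were fitted with edgeR 4.0.16 in R 4.3.3 (quasi-likelihood F test), with a common coefficient of variation of 0.17. Adjusted p-values are Benjamini-Hochberg over all tested genes in each of 12 contrasts, with a threshold of 0.05. The SE was taken as the size of the log2 fold change divided by the root of F. Where a group held 1 to 3 reads, a count ratio with its exact 95% interval is given, and for a group without reads a floor of 3 reads over the group. The fit was tested on simulated data with a common spread for all genes and changes far smaller than the largest here. That test does not cover folds over groups with few reads. The ligands and gene lists were chosen with earlier results of these data known. All ligands are described, and of each other pathway list the 4 tested genes of highest mean CPM in any group are named, with most members of counts of 5 or fewer. A few of these genes are not reported here. Cxcr2, Cxcr3 and Nfkbia were added after their values were seen. The genes most like a ligand were ranked by Pearson's r of log2 CPM (prior count 2) among genes at 10 CPM or more in a group. Alternatives were other scalings and filters, DESeq2 1.42.0, limma 3.58.1 (voom), counts of both strands, a replicate block, only the groups compared, a threshold of 0.01 and leaving out libraries. All groups share replicate numbers, whose meaning is not labelled. Deviations from the group means correlated over 0.1 in every pair for P248L day 2 against untreated (0.17 to 0.46) and for P248L day 5 against wild-type day 2 (0.11 to 0.29), and not in the other contrasts. Sequences came from RefSeq GRCm38.p6. Lengths and positions came from GENCODE M21.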

Additional observations from a re-analysis of the deposited data

Results flagged for a closer look

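Responses to IL-3 differed between P248L and wild-type cells, by the test of the difference itself, for 5 of 8 tested ligands at day 2. At day 5 they differed for 2 of the 8. Over all tested genes, 9.55% differed at day 2 and 26.9% at day 5, so the day 5 count of ligands lay near the share over all genes. At day 2 the P248L minus wild-type difference was -2.25 for Ccl3, -3.25 for Ccl4, -4.04 for Ccl6, -2.004 for Ccl9 and -2.40 for Cxcl10 on the log2 scale. At day 5 it was -0.92 for Ccl9 and -3.65 for Cxcl10. The Cxcl10 call at day 2 was near the threshold (edgeR adjusted p = 0.0395). It was lost when any of several single libraries was left out, as given above.

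Reads on the strand opposite to the gene, which enter no comparison above, exceeded the level over all genes in the same libraries for Ccl3 and Cxcl16. For Ccl3 they made up 3.65% in P248L untreated, 3.85% in P248L day 2 and 4.13% in wild-type untreated libraries, where all genes together had at most 2.54% in any library. The Ccl3 share was 0.761% at wild-type day 2, and at day 5 it was 0.949% in P248L and 0.726% in wild-type libraries. Opposite-strand Ccl3 reads numbered 102 to 237 in a group, while those on its own strand numbered 2547 to 30341. The share thus moved mostly with the latter. For Cxcl16 the opposite strand held 100% of reads in P248L untreated, day 2 and day 5 libraries (11, 8 and 14 reads), 54.5% at wild-type day 5 (6 of 11 reads) and 100% in wild-type untreated libraries (7 reads). Zmynd15 overlaps Cxcl16 on the opposite strand in the annotation. Its part in those reads was not tested.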

How the results depend on the processing

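Of 2950 recomputed ligand fold changes under 31 alternatives, 2908 kept their call, 33 lost and 9 gained it. The sign changed in 32, none of them past the threshold before or after. Ligand counts were the same under TMM, DESeq2 size factors, upper-quartile factors and no scaling. Without scaling the median of all genes at day 5 over untreated was -0.25 in P248L and -0.49 in wild-type cells, and calls that were rises made up 40.2% and 34.4% of calls there, against 49.0% and 48.9% with TMM. Both untreated ligand calls (2 of 8) fell to 0 in a fit of only the groups compared, with that fit and a replicate block, at an adjusted p under 0.01, and without P248L untreated library 1 and P248L day 2 library 3 together, and ranged from 0 to 2 with 1 library left out. Over all genes, calls between untreated lines numbered 1205 in a fit of only the groups compared, 584 with a replicate block there and 1343 at 0.01, and 1524 to 4535 with 1 library left out, against 2587. Calls for the day 2 difference of responses numbered 727, 710 and 589 in the same order, and 788 to 1915 with 1 library left out, against 1140. For the day 5 difference 1914 passed at 0.01, against 3207, and P248L day 2 against untreated had 1657 in a fit of only the groups compared, against 4775. The causes were not tested. Of single ligands, Cxcl10 at day 2 (difference of responses) was lost with limma-voom (adjusted p = 0.0509) and with the block in a fit of only the groups compared (edgeR adjusted p = 0.0651). Cxcl2 in that contrast passed with DESeq2 (adjusted p = 0.000351), with the replicate block (edgeR adjusted p = 0.028) and in a fit of only the groups compared (0.000745). Ccl4 at day 5 between lines passed with the block in a fit of only the groups compared (edgeR adjusted p = 0.00529), and Ccl5 at day 5 (difference of responses) with limma-voom (adjusted p = 0.0476). Cxcl10 at P248L day 5 over wild-type day 2 passed in a fit of only the groups compared (edgeR adjusted p = 0.0342). The block over all 18 libraries gained the Cxcl2 call and changed no other ligand call. Groups with under 10 reads (Ccl2, Ccl5, Cxcl2, Cxcl16 and Ccl22) limit those folds to the precision of their counts.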
